A study of Mus musculus with 6 samples.

Results

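The genes of cholesterol and fatty acid synthesis were followed in basal cells of the mouse esophageal epithelium. They are 31 genes chosen by function and found by their symbols among the 24016 genes of the deposited table: 6 of the mevalonate pathway, 11 of the steps from squalene precursors to cholesterol, 4 of sterol sensing and transport, 3 of fatty acid synthesis and 7 of fatty acid desaturation, elongation and activation. All 31 had a row, and 29 reached a mean of 1 FPKM over the 6 libraries and were tested. FPKM is fragments per kilobase of transcript and per M (mega) mapped fragments, so levels of different genes can be set side by side. The 2 genes below that limit were Hmgcs1 and Scd1.

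The study compared 2 sorted groups with 3 libraries each. All mice carried the transgene Krt15-CrePR1, in which the Krt15 promoter drives a Cre recombinase that RU486 switches on, and the reporter R26mTomato/mGFP, and all received 1 mg RU486. At 24 h, cells with high CD29, the beta-1 integrin of basal keratinocytes, were sorted by GFP: the Krt15-negative group is CD29high GFP-, and the Krt15-positive group is CD29high GFP+. GFP marks cells in which the promoter had driven recombination, so the GFP-negative group can also hold Krt15-expressing cells without recombination. Age and strain are not given, nor is it stated whether replicates are different animals or whether libraries of the same number, whose sample names share a prefix, come from 1 animal, so p-values reflect library-to-library spread that may partly be technical. The cDNA was made directly from cells with a low-input SMART-Seq kit, which does not mark strand.

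Cells make cholesterol from acetyl-CoA through mevalonate and squalene, and fatty acids from the same precursor through malonyl-CoA. Both routes are controlled by the SREBP transcription factors, which are held in the endoplasmic reticulum by INSIG proteins while sterols are plentiful and otherwise travel to the nucleus and switch on the genes of synthesis and uptake. SREBP-2, from Srebf2, acts mainly on sterol genes and SREBP-1, from Srebf1, mainly on fatty acid genes. In stratified epithelia, dividing basal cells need membrane lipid, and the cells above them build barrier lipids from cholesterol, long-chain fatty acids and ceramides.

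The libraries held an estimated 27.5 to 41.7 M fragments. Between 3247 and 9194 genes per library reached 1 FPKM, and the lowest number was that of Krt15-negative replicate 1, at an estimated 29.0 M fragments. Basal keratins were abundant throughout, and Krt15 itself stood at 2350, 6784 and 3412 FPKM in Krt15-negative cells and at 3350, 9692 and 2420 in Krt15-positive cells, with overlapping groups (limma adjusted p = 0.93). Several values are listed at exactly 0, which in this table can be a failed estimate, so such genes are given per library. Below, values are listed in the order of replicates 1 to 3.

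No gene of sterol or fatty acid synthesis differed between the groups past the test. Of the 29 tested, 0 had a limma adjusted p below 0.05, against 0% of all 9423 genes tested, and the smallest adjusted p among them was 0.79. At an unadjusted p below 0.05 there was 1, Scd2 (3.93% of all genes tested were below that limit). In bulk samples, fewer cells of a type and less RNA per cell cannot be told apart. The difference is given in mean log2(FPKM + 1), Krt15-positive minus Krt15-negative. It was above 0 for 23 of the 29 (79.3%, against 68.6% of all genes tested) and below 0 for 6. Its median was 1.20 over the 29 and 0.63 over all genes tested. Without Krt15-negative replicate 1 the medians were 0.15 and 0.03, and 17 of the 29 were above 0 (58.6%, against 51.3% of all genes tested). The groups did not overlap for 1 gene, Scd2, which was higher, where 8.85% of all genes tested were higher and 2.44% lower without overlap.

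**Figure D1:**
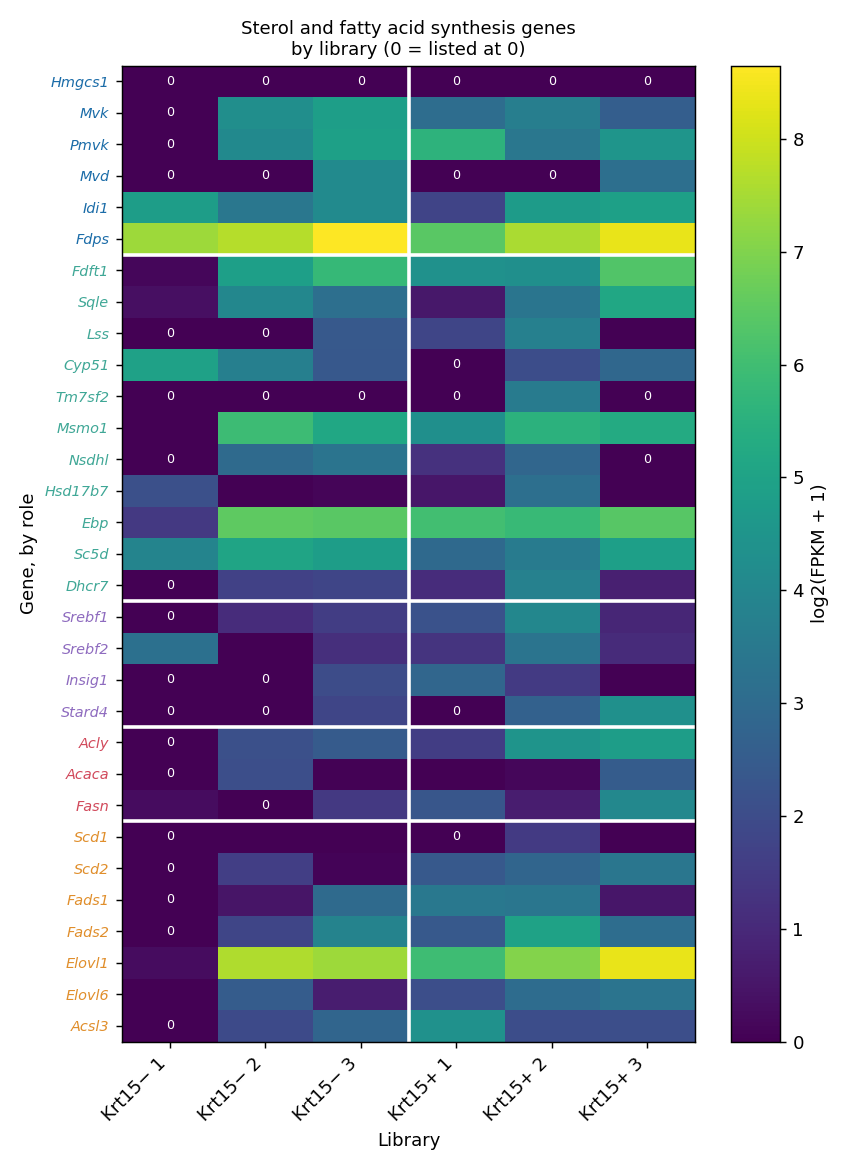
Levels of the 31 genes as log2(FPKM + 1), with 1 row per gene, 1 column per library (Krt15− and Krt15+ are the Krt15-negative and Krt15-positive groups, followed by the replicate number) and gene names colored by role. A white 0 marks a value listed at exactly 0; Fdps, Ebp and Elovl1 are the brightest rows, Hmgcs1 is at 0 throughout, and the first column holds 18 zeros.

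How many of these genes could be measured depended on the library. Of the 31, 7 reached 1 FPKM in Krt15-negative replicate 1, 20 in replicate 2 and 24 in replicate 3. In the Krt15-positive libraries the numbers were 22, 27 and 21. Those listed at 0 numbered 18, 7 and 2 among Krt15-negative and 6, 2 and 3 among Krt15-positive libraries. The 7 genes above 1 FPKM in Krt15-negative replicate 1 were Idi1, Fdps, Cyp51, Hsd17b7, Ebp, Sc5d and Srebf2. The same library had 42.4% of all tested genes at 0, against 6.16% to 20.5% in the other 5. Idi1, Fdps, Ebp and Sc5d were the 4 that reached 1 FPKM in every library, which is 13.8% of the 29 tested, against 25.4% of all genes tested.

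**Figure D2:**
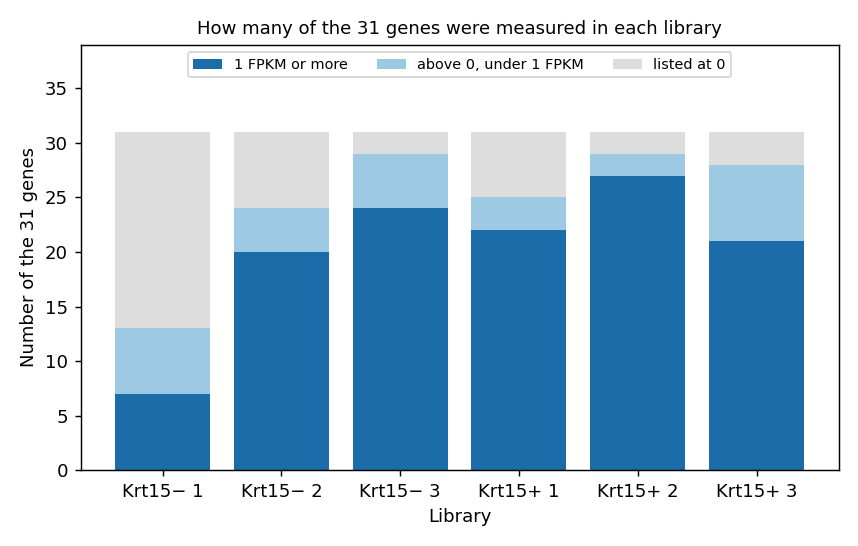
Number of the 31 genes at 1 FPKM or more, above 0 but under 1 FPKM, and listed at 0, with 1 bar per library. The bar of Krt15-negative replicate 1 has 7 genes at 1 FPKM or more, and the other bars have 20 to 27.

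The mevalonate pathway held the most abundant of the 31 genes and showed no common direction. Fdps encodes farnesyl diphosphate synthase, which makes the branch-point isoprenoid for sterols, protein prenylation and dolichol. It stood at 167, 205 and 401 FPKM in Krt15-negative cells and at 86.5, 185 and 327 in Krt15-positive cells. It lay between the 88.7th and the 95.7th percentile of the tested genes in each library, and the groups overlapped (difference -0.46, SE 0.68, 95% CI -1.95 to 1.03, limma adjusted p = 0.86). Idi1, the isomerase that supplies the allylic building block for Fdps, stood at 27.03, 9.78 and 16.8 FPKM in Krt15-negative cells and at 2.41, 25.6 and 29.5 in Krt15-positive cells. Its lowest value was in Krt15-positive replicate 1, and the groups overlapped (difference -0.32, SE 1.19).

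Mvk, mevalonate kinase, stood at 0, 18.2 and 27.5 FPKM in Krt15-negative cells and at 7.52, 11.9 and 4.96 in Krt15-positive cells. The groups overlapped (difference 0.085, SE 1.40). Without Krt15-negative replicate 1 its 3 Krt15-positive values all lay below the other 2, and the difference was -1.43 (limma adjusted p = 0.89). With that library left out, 852 of all 9659 genes tested were lower without overlap. Pmvk, which adds the next phosphate, stood at 0, 16.2 and 28.96 FPKM in Krt15-negative cells and at 47.6, 9.84 and 21.5 in Krt15-positive cells (difference 1.51, SE 1.40, and 0.0082 without Krt15-negative replicate 1). Mvd, the decarboxylase that ends this series of steps, stood at 0, 0 and 16.7 FPKM in Krt15-negative cells and at 0, 0 and 7.87 in Krt15-positive cells. It was above 0 only in the 2 libraries numbered 3. Hmgcs1, the synthase that makes HMG-CoA ahead of mevalonate, was listed at 0 in all 6 libraries, as were 40.1% of the 24016 genes, while Fdps further along was at 86.5 FPKM or more in each. These zeros do not show that Hmgcs1 was off.

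In the steps from farnesyl units to cholesterol, 8 of 11 differences were above 0 with all 6 libraries and 4 of 11 without Krt15-negative replicate 1. Ebp, the sterol isomerase, was the most abundant of the 11. It stood at 1.73, 89.5 and 86.1 FPKM in Krt15-negative cells and at 64.7, 56.2 and 82.8 in Krt15-positive cells. The 3 Krt15-positive libraries and Krt15-negative replicates 2 and 3 lay between 56.2 and 89.5 FPKM, and Krt15-negative replicate 1 was far below them. The difference was 1.29 (SE 1.30, limma adjusted p = 0.80) and turned to -0.38 without that library. Msmo1, the methylsterol oxidase that begins removal of the C4 methyl groups, had the same shape, at 0.02, 60.2 and 34.7 FPKM in Krt15-negative cells and at 18.7, 46.4 and 38.2 in Krt15-positive cells (difference 1.34, SE 1.47, and -0.50 without that library). Fdft1, squalene synthase, which commits farnesyl units to sterols, stood at 0.109, 28.2 and 53.9 FPKM in Krt15-negative cells and at 19.7, 18.7 and 78.3 in Krt15-positive cells (difference 1.40, SE 1.46, and -0.33 without that library). The annotated span of Fdft1 overlaps that of the abundant protease gene Ctsb, and in unstranded libraries reads in the shared stretch cannot be assigned.

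Sqle, squalene epoxidase, a rate-limiting oxygen-dependent step, stood at 0.265, 15.1 and 7.96 FPKM in Krt15-negative cells and at 0.488, 9.22 and 34.9 in Krt15-positive cells. Both libraries numbered 1 were at or below 0.488 FPKM, and the other 4 lay between 7.96 and 34.9 FPKM (difference 0.53, SE 1.47). Cyp51, the lanosterol demethylase, had the largest difference below 0 of the 29. It stood at 30.3, 12.4 and 4.23 FPKM in Krt15-negative cells and at 0, 3.17 and 6.36 in Krt15-positive cells. Its highest value came from Krt15-negative replicate 1, the library with the most zeros, and its only 0 from Krt15-positive replicate 1. The difference was -2.05 (SE 1.25, 95% CI -4.79 to 0.69, limma adjusted p = 0.79), and -1.42 without Krt15-negative replicate 1. Sc5d, the sterol desaturase, stood at 13.9, 31.9 and 27.1 FPKM in Krt15-negative cells and at 6.77, 11.1 and 28.8 in Krt15-positive cells (difference -0.77, SE 1.05).

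The other 5 sterol genes were low and patchy. Nsdhl, the dehydrogenase of the demethylation complex, stood at 0, 6.88 and 9.11 FPKM in Krt15-negative cells and at 1.36, 6.25 and 0 in Krt15-positive cells (difference -0.74, SE 1.26). Without Krt15-negative replicate 1 its groups did not overlap, with the Krt15-positive values lower (difference -1.79, limma adjusted p = 0.89). The same held for 852 of all 9659 genes tested then. Hsd17b7, the ketoreductase of the same complex, stood at 3.305, 0.0051 and 0.086 FPKM in Krt15-negative cells and at 0.434, 7.85 and 0.0071 in Krt15-positive cells. Lss, lanosterol synthase, stood at 0, 0 and 4.31 FPKM in Krt15-negative cells and at 2.497, 12.6 and 0.011 in Krt15-positive cells. Dhcr7, which makes cholesterol from its immediate precursor, stood at 0, 2.19 and 2.54 FPKM in Krt15-negative cells and at 1.16, 13.01 and 0.706 in Krt15-positive cells. Lss and Dhcr7 had their highest value in Krt15-positive replicate 2, and so did Hsd17b7, at 7.85 FPKM. Tm7sf2, a sterol reductase, was at 11.1 FPKM in that library and listed at 0 in the other 5. Its span overlaps Vps51, which was also highest there, at 14.0 FPKM.

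**Figure D3:**
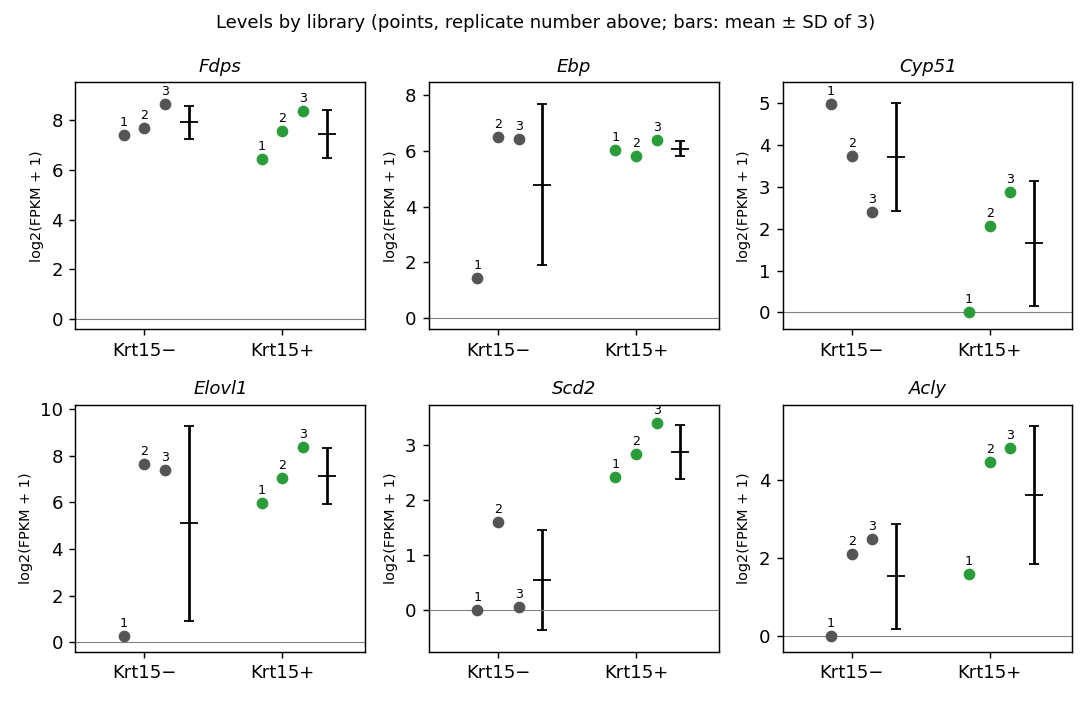
Levels of 6 genes as log2(FPKM + 1) in each library, with the replicate number above each point and the mean ± SD of 3 libraries beside each group. Fdps is high in every library, Ebp and Elovl1 are low in Krt15-negative replicate 1 alone, Cyp51 is highest in that library, Scd2 shows no overlap between groups, and the Acly groups overlap.

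The regulators were expressed at low levels, and their differences were above 0 for 4 of 4, none past the test (68.6% of all genes tested were above 0). Srebf1, which encodes SREBP-1, stood at 0, 1.13 and 1.98 FPKM in Krt15-negative cells and at 3.57, 15.1 and 0.917 in Krt15-positive cells. Krt15-positive replicate 3 lay below 2 of the Krt15-negative libraries (difference 1.49, SE 1.13, limma adjusted p = 0.79). The annotated span of Srebf1 overlaps that of Rai1, which was at 2.96 FPKM or less in every library. Srebf2, which encodes SREBP-2, stood at 8.05, 0.0051 and 1.26 FPKM in Krt15-negative cells and at 1.46, 8.97 and 1.11 in Krt15-positive cells (difference 0.44, SE 1.19, turning to -0.17 with upper-quartile scaling). The highest value was 8.05 FPKM in one group and 8.97 FPKM in the other. Insig1 encodes a retention protein of the SREBPs and is itself an SREBP target. It stood at 0, 0 and 3.01 FPKM in Krt15-negative cells and at 6.297, 1.78 and 0.013 in Krt15-positive cells (difference 0.79, SE 1.04). Stard4, a cytosolic sterol carrier, stood at 0, 0 and 2.52 FPKM in Krt15-negative cells and at 0, 5.36 and 19.4 in Krt15-positive cells. The difference was 1.73 (SE 1.24, limma adjusted p = 0.79) and 0.73 without Krt15-positive replicate 3.

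The genes that make and modify fatty acids mostly had differences above 0, as did 68.6% of all genes tested, and none passed the test. All 3 synthesis genes and all 6 tested genes of desaturation, elongation and activation had a difference above 0, with medians of 1.78 and 1.68. Without Krt15-negative replicate 1 these were 2 of 3 and 5 of 6, with medians of 1.32 and 0.69. For the mevalonate pathway and the steps from squalene precursors to cholesterol the medians were -0.32 and 0.73 with all libraries and -0.72 and -0.38 without that one. For sterol sensing and transport the median was 1.14 with all libraries and 1.18 without that one, so the order of the role groups depended on it. The sterol and fatty acid medians were not tested against each other.

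Acly, ATP citrate lyase, which supplies cytosolic acetyl-CoA to both routes, stood at 0, 3.301 and 4.57 FPKM in Krt15-negative cells and at 1.997, 21.02 and 26.9 in Krt15-positive cells. Krt15-positive replicates 2 and 3 were above every Krt15-negative library, and replicate 1 was below 2 of them (difference 2.09, SE 1.30, 95% CI -0.75 to 4.93, limma adjusted p = 0.79). Without Krt15-negative replicate 1 the difference was 1.32. Fasn, the synthase that builds palmitate, stood at 0.219, 0 and 1.72 FPKM in Krt15-negative cells and at 3.98, 0.634 and 15.5 in Krt15-positive cells. Its highest value, in Krt15-positive replicate 3, was 3.89 times the next (difference 1.78, SE 1.12, limma adjusted p = 0.79, and 0.94 without that library). Acaca, acetyl-CoA carboxylase, which makes malonyl-CoA, stood at 0, 3.26 and 0.027 FPKM in Krt15-negative cells and at 0.0077, 0.118 and 4.78 in Krt15-positive cells. Only 1 library of each group was above 1 FPKM (difference 0.19, SE 1.00). The annotated span of Acaca overlaps that of Tada2a. Tada2a stood at 0, 0.756 and 1.42 FPKM against 7.09, 10.1 and 0, so reads in the shared stretch are uncertain.

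Scd2, a stearoyl-CoA desaturase that makes monounsaturated fatty acids, was the only one of the 29 whose groups did not overlap. It stood at 0, 2.04 and 0.05 FPKM in Krt15-negative cells and at 4.35, 6.15 and 9.56 in Krt15-positive cells. The lowest Krt15-positive value was 2.13 times the highest Krt15-negative one. The difference was 2.33 (SE 1.04, 95% CI 0.056 to 4.60, limma adjusted p = 0.79), and leaving out single libraries gave 2.05 to 2.85. Its close paralog Scd1 was at 1.80 FPKM in Krt15-positive replicate 2 and at most 0.020 elsewhere. Reads can be shared between such paralogs, so the split between them is uncertain.

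Fads2 and Fads1 encode the desaturases that turn dietary essential fatty acids into long polyunsaturated ones. Fads2 stood at 0, 2.49 and 13.6 FPKM in Krt15-negative cells and at 4.302, 30.9 and 7.53 in Krt15-positive cells (difference 1.61, SE 1.33). Fads1 stood at 0, 0.396 and 6.95 FPKM in Krt15-negative cells and at 10.04, 9.47 and 0.446 in Krt15-positive cells (difference 1.30, SE 1.27). Both genes were listed at 0 in Krt15-negative replicate 1, and both groups overlapped for each.

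Elovl1, the elongase that makes the very long saturated chains of ceramides and is needed for a working epidermal barrier, was the second most abundant of the 31. It stood at 0.222, 196 and 165 FPKM in Krt15-negative cells and at 61.2, 131 and 331 in Krt15-positive cells. Only Krt15-negative replicate 1 stood apart, and the other Krt15-negative libraries lay above 2 of the Krt15-positive libraries. The difference of 2.03 (SE 1.66, limma adjusted p = 0.79) turned to -0.37 without it. The annotated span of Elovl1 overlaps that of the mitotic gene Cdc20, which stood at 9.99, 164.8 and 112 FPKM against 35.4, 213.5 and 17.8, so reads in the shared stretch are uncertain. Elovl6, which extends palmitate to stearate, stood at 0.0057, 4.74 and 0.606 FPKM in Krt15-negative cells and at 3.25, 7.37 and 9.09 in Krt15-positive cells (difference 1.76, SE 1.13, and 1.23 without Krt15-negative replicate 1). With upper-quartile scaling its groups also did not overlap, where 856 of all 9423 genes tested were higher without overlap. Acsl3, an acyl-CoA synthetase that activates fatty acids for lipid droplets, stood at 0, 2.81 and 6.04 FPKM in Krt15-negative cells and at 19.7, 3.11 and 3.2 in Krt15-positive cells (difference 1.24, SE 1.23). Its value in Krt15-positive replicate 1 was the highest, and the other 2 of that group lay among the Krt15-negative values. The annotated span of Acsl3 overlaps that of Utp14b, which was at 2.44 FPKM or less in every library.

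**Figure D4:**
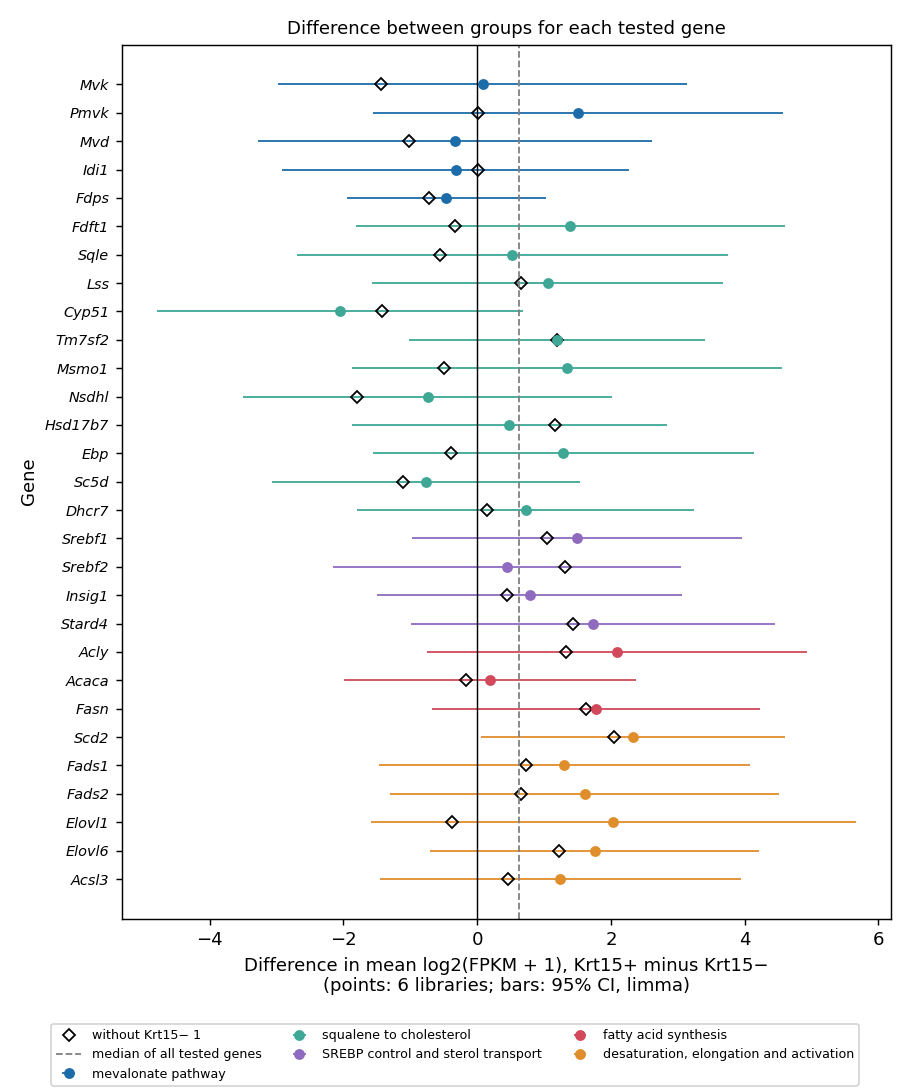
Difference in mean log2(FPKM + 1), Krt15-positive minus Krt15-negative, for the 29 tested genes, with filled points and 95% CI from limma over 6 libraries and open diamonds for the value without Krt15-negative replicate 1. The dashed line is the median of all tested genes, 0.63, and every interval but that of Scd2 includes 0. The diamonds of Mvk, Fdft1, Sqle, Msmo1, Ebp, Acaca and Elovl1 lie below 0 while their points lie above it. Idi1 goes the other way.

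Promoter sequence was not used to choose the genes, and it was searched for motifs without a test. RefSeq promoter windows (GRCm38.p6) matched 24 of the 31 genes, and the 250 bases before each start were searched on both strands. The CCAAT box, bound by the factor NF-Y, a known partner of SREBP, was found in 20 of the 24 (83.3%), against 40.6% of the tested genes with a window, 37.5% of all genes with one and 33.8% of all windows. The GC box GGGCGG, bound by Sp1, was also in 20 of 24, against 64.9% of the tested genes and 32.7% of all windows. Acaca, Acly, Elovl6 and Fads2 had no CCAAT match, Acaca, Elovl6, Fasn and Pmvk had no GC box match, and Acaca and Elovl6 therefore had neither. A core of the sterol regulatory element, TCACNCCAC, was in 1 of 24, Hmgcs1, and in 1.34% of the tested genes and 1.05% of all windows. These are matches of letters and not sites, and many sterol regulatory elements depart from this core. Matches of these motifs can overlap each other, and a gene with several windows was counted if any of them held the motif.

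Windows of 5 genes are printed because they span the patterns above: Hmgcs1, listed at 0 throughout; Msmo1 and Ebp, low in Krt15-negative replicate 1 alone; Fasn, highest in Krt15-positive replicate 3; and Acly, which has no CCAAT match. Each is the 250 bases before the RefSeq start, read along the gene, with CCAAT (or its complement ATTGG) and, in Hmgcs1, the sterol element core in capitals. Bases shortly after the start were found in GENCODE M21 transcripts of Msmo1, Ebp, Fasn and Acly. For Hmgcs1 they were not found, so its start rests on RefSeq alone. Hmgcs1 lies at chr13:119690101-119690350, plus strand, and holds 3 CCAAT boxes and 1 sterol element core.
Hmgcs1: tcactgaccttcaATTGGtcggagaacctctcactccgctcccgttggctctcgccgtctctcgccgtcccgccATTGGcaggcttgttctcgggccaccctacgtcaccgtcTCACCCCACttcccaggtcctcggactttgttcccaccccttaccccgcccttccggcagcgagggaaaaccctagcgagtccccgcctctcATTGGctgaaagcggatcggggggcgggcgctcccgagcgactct
Msmo1 lies at chr8:64733579-64733828, minus strand, and holds 3 CCAAT boxes.
Msmo1: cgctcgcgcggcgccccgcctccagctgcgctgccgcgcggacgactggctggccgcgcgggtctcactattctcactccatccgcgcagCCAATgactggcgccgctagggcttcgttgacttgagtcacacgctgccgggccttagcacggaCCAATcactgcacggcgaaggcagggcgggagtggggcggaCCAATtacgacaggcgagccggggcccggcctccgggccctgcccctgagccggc
Ebp lies at chrX:8193513-8193762, minus strand, and holds 2 CCAAT boxes.
Ebp: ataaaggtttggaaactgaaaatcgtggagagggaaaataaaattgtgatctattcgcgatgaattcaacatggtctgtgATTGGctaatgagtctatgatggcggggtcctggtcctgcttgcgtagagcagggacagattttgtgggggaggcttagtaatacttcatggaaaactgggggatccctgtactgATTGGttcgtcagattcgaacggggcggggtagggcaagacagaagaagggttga
Fasn lies at chr11:120824548-120824797, minus strand, and holds 3 CCAAT boxes, of which 2 overlap on opposite strands.
Fasn: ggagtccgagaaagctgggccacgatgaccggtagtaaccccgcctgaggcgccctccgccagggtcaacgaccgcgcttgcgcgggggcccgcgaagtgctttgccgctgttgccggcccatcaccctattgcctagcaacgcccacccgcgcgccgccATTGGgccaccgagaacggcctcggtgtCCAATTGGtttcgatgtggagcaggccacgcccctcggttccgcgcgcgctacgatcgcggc
Acly lies at chr11:100528001-100528250, minus strand, and holds 0 CCAAT boxes and 4 GC boxes. GC boxes numbered 2 in the Hmgcs1 window, 2 in Msmo1, 1 in Ebp and 0 in Fasn, and are not capitalized in any window.
Acly: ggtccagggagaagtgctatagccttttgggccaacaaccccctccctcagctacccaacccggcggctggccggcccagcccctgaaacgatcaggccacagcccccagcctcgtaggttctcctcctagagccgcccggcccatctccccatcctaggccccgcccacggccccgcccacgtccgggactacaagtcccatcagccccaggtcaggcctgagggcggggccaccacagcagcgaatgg

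Other genes of lipid metabolism, in 4 lists, gave 0 of 53 tested genes with a limma adjusted p below 0.05 (0% of all genes). At an unadjusted limma p below 0.05 there were 2, Insig2 and Acadm, against 3.93% of all genes tested. Beside the genes without overlap named below, 8.85% of all genes tested were higher in Krt15-positive cells without overlap and 2.44% lower. Of the other sterol and isoprenoid genes, 12 of 15 were tested, and 9 differences were above 0 (median 0.73, and -0.14 without Krt15-negative replicate 1). Insig2, the second retention protein of the SREBPs, stood at 0, 0.01 and 2.99 FPKM in Krt15-negative cells and at 10.2, 12.4 and 28.1 in Krt15-positive cells. Its groups did not overlap, and its unadjusted p was the smallest in the list (difference 3.36, SE 1.14, 95% CI 0.85 to 5.86, limma adjusted p = 0.79). Por, the electron donor of Cyp51 and Sqle, stood at 2.59, 63.1 and 17.1 FPKM in Krt15-negative cells and at 70.1, 61.4 and 33.6 in Krt15-positive cells (difference 1.74, SE 1.17), low in Krt15-negative replicate 1. Cyb5r3, which feeds electrons through cytochrome b5 to the desaturases, stood at 92.2, 105 and 111 FPKM against 117, 267 and 160, with no overlap (difference 0.73, SE 0.66, limma adjusted p = 0.79).

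Of the other genes of fatty acid synthesis, activation and glycerolipids, 15 of 24 were tested, with 10 differences above 0 (median 0.35, and -0.15 without Krt15-negative replicate 1). Tecr, the last reductase of the elongation cycle, was abundant and nearly equal, at 201, 441 and 434 FPKM against 280.2, 339.7 and 407 (difference 0.0019, SE 0.52). Hsd17b12, the ketoreductase of the same cycle, stood at 99.6, 99.8 and 62.3 FPKM in Krt15-negative cells and at 20.9, 51.7 and 50.9 in Krt15-positive cells. Its Krt15-positive values were all lower (difference -1.14, SE 0.83, limma adjusted p = 0.79). Elovl5, the elongase of polyunsaturated fatty acids, stood at 0.012, 12.7 and 6.76 FPKM against 15.1, 14.4 and 20.2, with all Krt15-positive values higher (difference 1.87, SE 1.25, limma adjusted p = 0.79). Elongation-cycle genes thus lay on both sides, none past the test.

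In the opposing route, fatty acid oxidation, all 18 genes were tested and 12 differences were above 0 (median 0.64, and -0.27 without Krt15-negative replicate 1). Acadm, the medium-chain dehydrogenase, stood at 0.977, 1.75 and 53.05 FPKM in Krt15-negative cells and at 66.3, 66.8 and 64.01 in Krt15-positive cells (difference 3.33, SE 1.31, limma adjusted p = 0.79). Its Krt15-positive values lay within 64.0 to 66.8 FPKM, and Krt15-negative replicate 3 was not far below them. The abundant genes Etfb, an electron carrier subunit, and Ech1, an auxiliary isomerase, stood at 1169, 975 and 1276 FPKM against 858, 956 and 952 and at 773, 968 and 899 FPKM against 426, 817 and 465 (differences -0.30, SE 0.32, and -0.68, SE 0.40). Of the genes of sterol efflux, esterification and the sterol-sensing receptor LXR, 8 of 12 were tested, with 7 differences above 0 (median 1.12, and 0.57 without Krt15-negative replicate 1). Nr1h2, an LXR gene, stood at 64.05, 29.2 and 18.2 FPKM against 10.7, 31.7 and 7.01, and Npc2, a lysosomal sterol carrier, at 4.48, 10.7 and 47.3 FPKM against 24.7, 39.8 and 30.99. Ch25h, which makes an SREBP-suppressing oxysterol, was listed at 0 in all 3 Krt15-negative libraries and measured 0.199, 4.65 and 24.6 FPKM in Krt15-positive cells (limma adjusted p = 0.79). Mylip, an LXR target, stood at 0.5103, 11.9 and 3.16 FPKM against 13.1, 7.45 and 13.3.

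Markers of other lipid-making cells were low or uneven, and their part in the values above was not tested. Of the 10 adipocyte markers, 6 were at 0 in all libraries, Adipoq and Plin1 among them, and the list summed to 0 to 12.4 FPKM in the Krt15-negative and 0 to 18.3 in the Krt15-positive libraries, with Pparg, which other cells also express, the most abundant. The Schwann cell marker Sox10 was at 0 in all libraries, and the sum over the list of 10 was 7.35 to 69.8 FPKM in the Krt15-negative and 9.52 to 132 in the Krt15-positive libraries. Of the 10 sebaceous and gland markers, 4 were at 0 in all libraries, Mc5r and Krt79 among them, and the sum was 0.038 to 90.2 FPKM in the Krt15-negative and 45.2 to 163 in the Krt15-positive libraries, most of it the lipid droplet genes Plin2 and Dgat2. The 6 endothelial markers summed to at most 4.05 FPKM in any library and the 8 muscle markers to at most 13.5.

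Other marker lists stood at different levels in the groups or in single libraries, with 0 genes past the test. Of the fibroblast markers, 10 of 11 tested genes had a difference below 0. Of these 11, 8 were lower in Krt15-positive cells without overlap, against 2.44% of all genes tested. An unadjusted limma p below 0.05 was found for 8 of the 11, against 3.93% of all genes tested. The list of 13 summed to 445 to 847 FPKM in the Krt15-negative and 72.5 to 192 in the Krt15-positive libraries. Col1a2 and Lum were at 0 in all 3 Krt15-positive libraries, and Dcn was still at 71.1 FPKM or more there. Of the immune markers, 7 of 9 tested genes had a difference below 0 (median -1.72, and -1.94 without Krt15-negative replicate 1). Of these 9, 2, Tyrobp and Coro1a, were lower in Krt15-positive cells without overlap, against 2.44% of all genes tested. Coro1a stood at 0.135, 13.2 and 0.033 FPKM in Krt15-negative cells and at 0 in all 3 Krt15-positive libraries. Tyrobp, a signaling adaptor of myeloid and natural killer cells, stood at 203, 124 and 30.99 FPKM in Krt15-negative cells and at 0, 20.2 and 27.6 in Krt15-positive cells (limma adjusted p = 0.79). The immune list summed to 606 to 938 FPKM in the Krt15-negative and 146 to 7316 in the Krt15-positive libraries, and Lyz2 in Krt15-positive replicate 1 made up most of the highest sum. The part of fibroblasts and immune cells in the levels of the synthesis genes was not tested. The mean log2(FPKM + 1) of 10 basal keratinocyte markers was 4.93, 6.28 and 6.03 in Krt15-negative cells against 6.38, 6.95 and 5.97 in Krt15-positive cells. The mean of 12 suprabasal keratinocyte markers was 5.45, 5.90 and 5.18 in Krt15-negative cells against 5.06, 6.89 and 7.41 in Krt15-positive cells. Krtdap, the most abundant of these markers, had a listed value of exactly 0 for replicate 3 of the Krt15-negative group. Every remaining library held 7254 FPKM or more of Krtdap, so that 0 may be a failed estimate. The mean of 5.18 may therefore be too low, which was not tested. Krt15-positive replicate 3 had the highest suprabasal mean, and it also held the highest value of 10 of the 30 synthesis genes above 0 anywhere: Idi1, Fdft1, Sqle, Stard4, Acly, Acaca, Fasn, Scd2, Elovl1 and Elovl6. Among all genes tested, 17.2% were highest in that library. Krt15-positive replicate 2, with the next highest suprabasal mean, held the highest value of 8 of the 30, against 24.1% of all genes tested. The part of suprabasal cells in these values was not tested.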

How the data were processed

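The deposited table has 24043 rows of FPKM, as the authors estimated them; its title calls them counts, but they are not whole. The submitters' processing notes name the mm9 build, Cufflinks 2.2.1, STAR 2.5 and DESeq2 without their roles. Gene annotation, read filters and the strand setting of the processing were not given in the sources used here, and the kit does not mark strand. Such estimates can be listed at 0 when they fail and can share reads between paralogs. All 6 value columns carry the labels' sample names. Symbols turned into dates (27 rows) were left out.

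Depth was approximated in 2172 genes with 1 annotated transcript (GENCODE M21) of at least 1500 bases: FPKM times kilobases piled up at the value of 1 fragment, whose inverse is the depth.

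The 9423 genes whose mean reached 1 FPKM were tested as log2(FPKM + 1) with limma 3.58.1 (R 4.3.3), with a variance trend and no term but group, over all 6 libraries. P-values were adjusted over all genes by Benjamini-Hochberg and called below 0.05, 2-sided. The fit was tested on simulated data. The members and lists were chosen with earlier results of these data known. All 31 members may be named. From each other pathway list the 2 genes of highest mean and the 2 of smallest p were named. From a marker list the most abundant gene could be named, which was not done for every list. Defining markers at 0, in all libraries or in all Krt15-positive ones, could also be named. Dgat2, Tyrobp, Coro1a and the overlapping genes Ctsb, Cdc20, Vps51, Tada2a, Rai1 and Utp14b were named after their values were seen. Of the list genes, 3 matched by a RefSeq synonym and 1 had no match. Alternatives were another pseudocount, filter, scaling, library weights, a replicate block and leaving out libraries.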

Additional observations from a re-analysis of the deposited data

How the results depend on the processing

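No synthesis gene passed the test under any of the 14 alternatives, with limma adjusted p between 0.45 and 1.00 over genes and alternatives. Among the 386 values of the 29 genes under these alternatives, 346 kept their direction and 40 turned, the latter in 16 genes. Changing the filter or adding the replicate block leaves each gene's difference at its main value by construction, so those directions could not turn. The 13 genes that turned in none were Lss, Cyp51, Tm7sf2, Nsdhl, Sc5d, Srebf1, Stard4, Acly, Fasn, Scd2, Fads1, Fads2 and Elovl6. Genes under the filter in an alternative have no value there. Tm7sf2, above 0 only in Krt15-positive replicate 2, was not tested without that library. Leaving out other libraries could not turn its difference. The cause of the turns was not tested.

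With upper-quartile scaling, the differences that turned sign were Hsd17b7 (-0.098) and Srebf2 (-0.17). With quantile normalization, the differences that turned sign were the median of other sterol and isoprenoid genes (-0.064), the median of other fatty acid synthesis, activation and glycerolipid genes (-0.16), Mvk (-0.32), Sqle (-0.45), Hsd17b7 (-0.65), Srebf2 (-0.59) and Acaca (-0.12). With library weights, the differences that turned sign were the median of other fatty acid synthesis, activation and glycerolipid genes (-0.23), the median of fatty acid oxidation (-0.20), Mvk (-1.31), Fdft1 (-0.48), Sqle (-0.43), Msmo1 (-0.0063), Ebp (-0.12) and Elovl1 (-0.066). Leaving out both libraries numbered 1, the differences that turned sign were Mvk (-1.42), Pmvk (-0.54), Idi1 (1.04), Fdft1 (-0.019), Msmo1 (-0.12), Ebp (-0.36), Insig1 (-0.25) and Acsl3 (-0.32). Leaving out single libraries moved these across 0: the median of other sterol and isoprenoid genes -0.14 to 0.91, the median of other fatty acid synthesis, activation and glycerolipid genes -0.15 to 0.51, the median of fatty acid oxidation -0.27 to 1.21, Mvk -1.43 to 0.99, Idi1 -0.88 to 0.70, Fdft1 -0.33 to 2.49, Sqle -0.56 to 1.76, Msmo1 -0.50 to 2.46, Ebp -0.38 to 2.14, Acaca -0.16 to 0.64, Elovl1 -0.37 to 3.30, Srebf2 -0.28 to 1.31, Mvd -1.38 to 1.05, Fdps -0.91 to 0.040 and Dhcr7 -0.23 to 1.29.

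The number of synthesis genes without overlap, 1, was 2 with upper-quartile scaling and 0 among the 14 with a mean of at least 5 FPKM. It was 8 without both libraries numbered 1 and between 2 and 8 without single libraries, where fewer samples are compared. Such counts also rose among all genes tested, from 834 higher and 230 lower of 9423. Without both libraries numbered 1 they were 1803 and 1154 of 9430. Without Krt15-negative replicate 3, where 8 of 29 synthesis genes did not overlap, they were 1795 and 440 of 9328. Over all genes, limma called 8 with library weights and between 0 and 1 without single libraries (1 without Krt15-negative replicate 2). The medians of the synthesis genes and of all genes, 1.20 and 0.63, became 0.96 and 0.48 after upper-quartile scaling. Quantile normalization gave 0.42 and 0.04, library weights gave 0.15 and 0.17, and a pseudocount of 0.1 gave 2.12 and 1.20. Without single libraries the median of the synthesis genes lay between 0.15 (without Krt15-negative replicate 1) and 1.56. Replicate numbers are shared between the groups, and in the labels' sample names so is a prefix for each number, but the labels do not say what either marks. A shared prefix may stand for 1 animal sorted into both groups, which was not established. Deviations from the group means correlated at 0.13, 0.17 and 0.0089 for numbers 1 to 3, with number 3 under the limit of 0.1 set for pairing. With the replicate block, 0 of 29 synthesis genes and 0 of 9423 genes were called. The median difference was again 1.20, which the block cannot change when each group has 1 library of each number. Every library of number 1 and 2 correlated best with its own number across groups, and those of number 3 did not.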
